A study of Mus musculus with 10 samples.

Results

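The 7 smooth muscle contractile genes Acta2, Tagln, Myh11, Cnn1, Des, Mylk and Myl9 were followed in endothelial cells purified from mouse brain tumours. They were taken by symbol from the deposited count files and are 7 of the 23238 symbols found in all 10 files. The rule used the symbols only, but the genes and lists were chosen with earlier results of these data known. The tumours were orthotopic gliomas, grown from GL26l cells injected into the brain of mice on a C57BL/6 background. The Sox7 arm held 2 control and 2 deficient libraries and the Sox17 arm 3 of each, numbered as sets of 1 control and 1 deficient library. In the deficient mice a floxed allele (Sox7fl/fl or Sox17fl/fl) was combined with the Cdh5(BAC)-CreERT2 driver, a tamoxifen-activated recombinase under the regulatory sequence of the VE-cadherin gene. That driver is active in endothelium and not, by design, in mural cells. Per the series' design text the experimental mice received tamoxifen at 20 mg/kg by intraperitoneal injection. The labels do not give the genotype of the controls beyond the name of the arm, nor whether controls received tamoxifen or carried the recombinase. Effects of the drug or of the recombinase and of the deletion therefore cannot be told apart. The age of the mice and whether a library came from 1 animal or a pool are not given in the sources used here.

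Smooth muscle contracts when calcium and calmodulin switch on myosin light chain kinase, which phosphorylates the regulatory light chain of myosin and so lets myosin heavy chains pull on actin. Calponin and transgelin bind the actin filaments, and desmin forms the intermediate filaments that hold the apparatus in place. In brain these genes mark arterial and arteriolar smooth muscle and, for some, contractile pericytes, the mural cells that wrap the endothelium. Mylk and Myl9 are also used by endothelial cells, in which actomyosin tension acts on cell junctions. Transcription of many of these genes depends on serum response factor and its coactivator myocardin, which act at the CArG box, a short CC to GG element with an A and T core.

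Counts totalled between 2082305 (Sox17 control 1) and 35068802 (Sox17-deficient 2) per library. All 12 endothelial markers listed, among them Pecam1 and Cdh5, were detected in all 10 libraries, with a summed level of 7943 to 17292 CPM (counts scaled to a common library total, TMM-adjusted). The deleted gene was low in each library labelled deficient for it. Sox7 had 193 and 64 counts in Sox7 controls and 4 and 5 in Sox7-deficient libraries, and Sox17 had 384, 1140 and 1508 counts in Sox17 controls and 14, 38 and 54 in Sox17-deficient libraries. Which exons were floxed is not stated, and tags outside them would not report the deletion. Sox7-deficient 1 stood apart by its macrophage markers, with a summed level over 11 markers of 12801 CPM, against 731 CPM in its control and 16.2 to 471 CPM in the other 8 libraries.

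No contractile gene was called different between deficient and control libraries in either arm. In edgeR's quasi-likelihood test over 13040 genes, 0 of the 7 had an adjusted p (Benjamini-Hochberg) under 0.05 after Sox7 deletion and 0 of 7 after Sox17 deletion. The same share, 0%, of all genes tested passed in each comparison. The deleted genes did not pass either in this test, each in its own comparison. Their log2 fold changes were −4.52 (SE 1.04) for Sox7 and −5.24 (SE 0.81, edgeR adjusted p of 0.226) for Sox17. A gene not called is therefore not shown to be unchanged. At an unadjusted p under 0.05 the counts were also 0 and 0 of 7, against 1.5% of all genes in the Sox7 and 3.52% in the Sox17 comparison. DESeq2 and limma-voom called none of the 7 either, while over all genes DESeq2 called 3 in the Sox7 and 29 in the Sox17 comparison and limma-voom 0 in each. The fitted fold changes nevertheless lay on opposite sides in the 2 arms. All 7 were above 0 in the Sox7 comparison, with a median log2 fold change of 0.84, and 6 of 7 were below 0 in the Sox17 comparison, with a median of −0.77. The medians over all genes tested were 0.04 and 0.05, and 51.9% of all genes were above 0 in the first comparison and 47.1% below 0 in the second. Of these 14 directions 8 turned when some 1 library was left out, and 6 did not (Tagln and Des for Sox7, and Cnn1, Des, Mylk and Myl9 for Sox17). Opposite sides in the 2 arms were not particular to the contractile genes. All 11 macrophage markers were above 0 in the Sox7 and below 0 in the Sox17 comparison. The Sox7 sets did not share this direction. Control and deficient sums were 731 and 12801 CPM in set 1 and 221 and 120 CPM in set 2. In Sox17 set 1, 9 of the 11 were at 0 counts in the control and 8 in the deficient library. Of 11 pericyte markers 7 were above and 9 below 0, respectively. Endothelial markers lay the other way, with 10 of 12 below 0 for Sox7 and 9 of 12 above 0 for Sox17. The p-values cover only the variation among these libraries. It may be technical in part, as no label ties them to different animals.

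**Figure D1:**
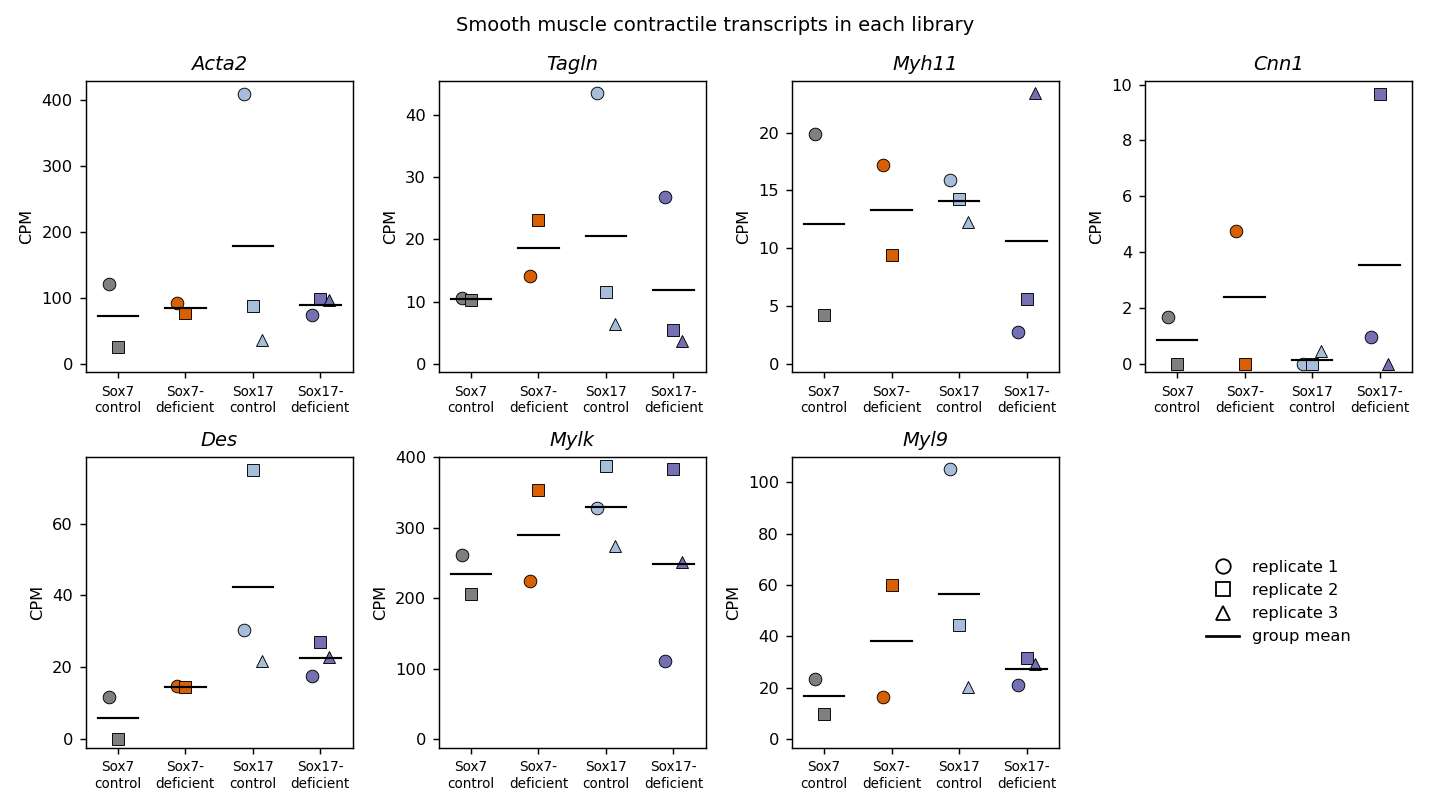
CPM of the 7 contractile genes in each of the 10 libraries (vertical axis, linear, 0 included), grouped on the horizontal axis by genotype, with marker shape for the replicate number and a line at the group mean. Sox17 control 1 is the highest library for Acta2 (409 CPM), Tagln (43.5 CPM) and Myl9 (105 CPM), and Sox7 control 2 is the lowest for Acta2 (24.6 CPM) and Myl9 (9.94 CPM) and has no Des count.

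Acta2 encodes the alpha actin of vascular smooth muscle, the actin isoform that the contractile myosin pulls on (GRCm38 chromosome 19, 34241090 to 34255590, minus strand, protein-coding). Its level was 120.5 and 24.6 CPM in Sox7 controls 1 and 2 and 91.6 and 76.1 CPM in the Sox7-deficient libraries of the same sets. The deficient libraries lay between the controls, so the set differences had opposite signs, −0.39 in set 1 and 1.59 in set 2 on the log2(CPM + 1) scale. In the Sox17 arm the controls were at 409, 88.0 and 35.8 CPM and the deficient libraries at 73.7, 97.9 and 96.6 CPM. Here too the 3 deficient libraries lay inside the range of the controls, and the controls differed among themselves by more than the groups did. The Sox17 control mean was 178 ± 202 CPM (SD, n = 3), and that after Sox17 deletion 89.4 ± 13.6 CPM (n = 3). In the Sox7 arm the means were 72.5 ± 67.8 CPM for controls and 83.9 ± 10.9 CPM for deficient libraries (n = 2 each). The fitted log2 fold changes were 0.21 (SE 0.94) for Sox7 and −0.98 (SE 0.78) for Sox17, each with an edgeR adjusted p of 1. Without Sox17 control 1 the Sox17 value was 0.52, and without Sox7 control 2 the Sox7 value was −0.53. With the replicate number as a block the values were 0.61 (Sox7) and −0.23 (Sox17).

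The sequence upstream of the Acta2 start was examined because Acta2 and Myl9 moved most alike of the 21 pairs of contractile genes within sets. Their Pearson r was 0.91 over 10 libraries centred on their set, a description. The 2 centred libraries of a set mirror each other, so this r rests on 5 set differences. RefSeq promoter entries (GRCm38.p6) were matched for 5 of the 7 genes, Acta2, Myl9, Cnn1, Des and Mylk. Tagln and Myh11 had no entry. The 250 bases before each start were searched on both strands for the CArG box and for a CArG-like element, which has 1 G or C within the core of 6 bases. A CArG box stood in 1 of the 5 (Myl9) and either element in 2 of the 5 (Myl9 and Acta2), against 1.47% and 8.59% of 32851 promoters of the same length. The 2 Acta2 elements are shown as 30-base stretches of the minus strand, at chr19:34255438-34255467 and chr19:34255388-34255417, with the element in capitals. They begin 84 and 34 bases before the RefSeq start at 34255373. No GENCODE start lies close to it, and both elements, like all but 33 of the 250 bases, lie inside the GENCODE span of the gene.
Acta2 first element: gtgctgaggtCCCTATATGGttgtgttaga
Acta2 second element: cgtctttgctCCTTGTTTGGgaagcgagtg
A match of letters is a description and not evidence of a bound site.

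Myl9 encodes the smooth muscle regulatory light chain, the substrate of myosin light chain kinase (chromosome 2, 156775420 to 156781658, plus strand). The upstream stretch chr2:156775214-156775419 (GRCm38.p6, plus strand, from RefSeq) is shown because it holds a CArG box and, nearer to the start, a CArG-like element, both in capitals.
Myl9 upstream: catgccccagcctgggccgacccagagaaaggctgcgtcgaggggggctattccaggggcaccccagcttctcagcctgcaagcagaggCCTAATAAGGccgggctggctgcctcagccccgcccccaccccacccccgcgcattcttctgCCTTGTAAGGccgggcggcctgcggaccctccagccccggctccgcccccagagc
The level of Myl9 was 23.4 and 9.94 CPM in Sox7 controls and 16.3 and 59.9 CPM in Sox7-deficient libraries of sets 1 and 2. It was 105, 44.4 and 20.4 CPM in Sox17 controls and 21.3, 31.7 and 29.1 CPM in Sox17-deficient libraries of sets 1, 2 and 3. The groups overlapped in both arms. As for Acta2, Sox17 control 1 was highest and Sox7 control 2 lowest of the 10 libraries. The log2 fold change was 1.19 (SE 0.81) in the Sox7 and −1.04 (SE 0.66) in the Sox17 comparison, each with an edgeR adjusted p of 1. Without Sox7-deficient 2 the Sox7 value was −0.035, and without Sox17 control 1 the Sox17 value was −0.25.

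Mylk encodes myosin light chain kinase (chromosome 16, 34745210 to 35002420, plus strand). The gene makes a long form found in endothelium and a short form of smooth muscle that share their 3′ end, and a count per symbol does not separate them. An antisense gene, Gm21691, overlaps that end in the annotation, and the strand setting of the counting is not given in the sources used here. Mylk was at 261 and 207 CPM in Sox7 controls and 224 and 354 CPM in Sox7-deficient libraries. In the Sox17 arm it was at 329, 387 and 275 CPM in controls and 111, 383 and 251 CPM in deficient libraries. It was the steadiest of the 7 over the 10 libraries, with a highest level 3.49 times the lowest, while Acta2 ranged over 16.7-fold, Tagln over 12.1-fold and Myl9 over 10.6-fold. Sox17-deficient 1 was the low library. The log2 fold changes were 0.31 (SE 0.53) for Sox7 and −0.41 (SE 0.43) for Sox17, each with an edgeR adjusted p of 1. The Sox17 value was −0.065 without Sox17-deficient 1 and −0.87 without Sox17-deficient 2, and the Sox7 value was −0.064 without Sox7-deficient 2.

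Myh11 encodes the smooth muscle myosin heavy chain, the motor that marks mature contractile smooth muscle (chromosome 16, 14194535 to 14291372, minus strand). It was at 19.9 and 4.24 CPM in Sox7 controls and 17.2 and 9.42 CPM in Sox7-deficient libraries. In Sox17 controls it was at 15.9, 14.2 and 12.3 CPM, and in Sox17-deficient libraries at 2.75, 5.56 and 23.4 CPM. The controls of the Sox17 arm lay close together, at 14.1 ± 1.81 CPM (SD, n = 3), and those with the deletion lay on both sides of them, at 10.6 ± 11.2 CPM (SD, n = 3). The log2 fold changes were 0.14 (SE 1.38) for Sox7 and −0.42 (SE 1.13) for Sox17, each with an edgeR adjusted p of 1. Without Sox17-deficient 3 the Sox17 value was −1.75, and without Sox17-deficient 1 it was 0.031. The Sox7 value ran from −0.58 without Sox7 control 2 to 1.62 without Sox7 control 1. With the replicate block the values were 0.47 (Sox7) and −1.01 (Sox17).

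Tagln encodes transgelin, also called SM22 alpha, an actin-binding protein and early marker of smooth muscle differentiation (chromosome 9, 45929619 to 45936058, minus strand). Its 3′ end overlaps that of Pcsk7 on the other strand, so reads of the 2 genes could have been mixed if counting ignored strand. Tagln was at 10.5 and 10.3 CPM in Sox7 controls and 14.1 and 23.1 CPM in Sox7-deficient libraries, both above both controls. It was at 43.5, 11.6 and 6.31 CPM in Sox17 controls and 26.8, 5.33 and 3.60 CPM in Sox17-deficient libraries, lower than the control in each of the 3 sets, although the groups overlapped. Mylk was the only other of the 7 lower in all 3 Sox17 sets, which 11.5% of all genes tested were. The Tagln set differences were 0.39 and 1.09 in the Sox7 arm and −0.68, −0.99 and −0.67 in the Sox17 arm. Among all genes tested, 2.19% were likewise higher in both Sox7 sets and lower in all 3 Sox17 sets. The fitted log2 values were 0.84 (SE 1.26) and −0.77 (SE 1.03), each with an edgeR adjusted p of 1. Without Sox17 control 1, the highest library, the Sox17 value was 0.39, and without Sox17-deficient 1, the second highest, it was −2.18.

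Des encodes desmin, the intermediate filament protein of muscle cells and a classical pericyte and smooth muscle marker (chromosome 1, 75360329 to 75368579, plus strand). The antisense gene Gm15179 overlaps its 3′ end. Des was at 11.8 CPM and 0 counts in Sox7 controls 1 and 2, and at 14.7 and 14.6 CPM in the deficient libraries. The 0 in Sox7 control 2 allows a level of up to 0.276 CPM (a floor of 3 counts, counting error only). Both deficient libraries lay above both controls, as for Tagln. In the Sox7 arm 12.7% of all genes tested lay so, against these 2 of the 7. The same 2 genes were the ones higher in both Sox7 sets, as 22.4% of all genes tested were. Nearly all of the difference came from set 2 (3.96, against 0.29 in set 1). In the Sox17 arm Des was at 30.4, 74.8 and 21.7 CPM in controls and 17.7, 27.0 and 22.9 CPM in deficient libraries, and the groups overlapped. The log2 fold changes were 1.31 (SE 1.33) and −0.91 (SE 1.07), each with an edgeR adjusted p of 1. Without Sox7 control 1, which leaves the library with no count as the lone Sox7 control, the fitted Sox7 value was 10.40 with an edgeR adjusted p of 0.0854. That number depends on the small count added to a 0 and is not a measured fold. Without Sox7 control 2 it was 0.30, and without Sox17 control 2 the Sox17 value was −0.21. With the replicate block the Sox7 value was 3.39.

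Cnn1 encodes basic calponin, which binds actin and inhibits the myosin ATPase, and is largely restricted to differentiated smooth muscle (chromosome 9, 22099216 to 22109630, plus strand). It was hardly detected. It had 14 and 0 counts in Sox7 controls, 33 and 0 in Sox7-deficient libraries, 0, 0 and 7 in Sox17 controls and 7, 342 and 0 in Sox17-deficient libraries. Most of the counts over the series came from Sox17-deficient 2, where the level was 9.64 CPM, against at most 4.76 CPM in any other library. That library was the highest for none of the other contractile genes, with Tagln at 5.33 CPM, Myh11 at 5.56 CPM and Acta2 at 97.9 CPM. Its Mylk level of 383 CPM was close to the highest, 387 CPM in Sox17 control 2. The fitted log2 fold changes were 1.4996 (SE 3.42) for Sox7 and 4.34 (SE 3.14) for Sox17, each with an edgeR adjusted p of 1, and depend on the small count added to libraries at 0. Leaving out Sox17-deficient 2 gave a Sox17 value of 1.47. Leaving out Sox7-deficient 1 turned the Sox7 value to −6.35. The Cnn1 promoter was the only one of the 5 with the letters ACAAT, the core bound by Sox proteins, on either strand of the 250 bases. That core stood in 27.7% of all promoters of this length. It lies on the plus strand within chr9:22099094-22099123, 147 bases before the start, in capitals.
Cnn1 ACAAT stretch: ccctaggtggaaACAATgacacagtcagct
The Acta2, Myl9, Des and Mylk windows did not hold these letters, from which nothing follows about Sox7 or Sox17.

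**Figure D2:**
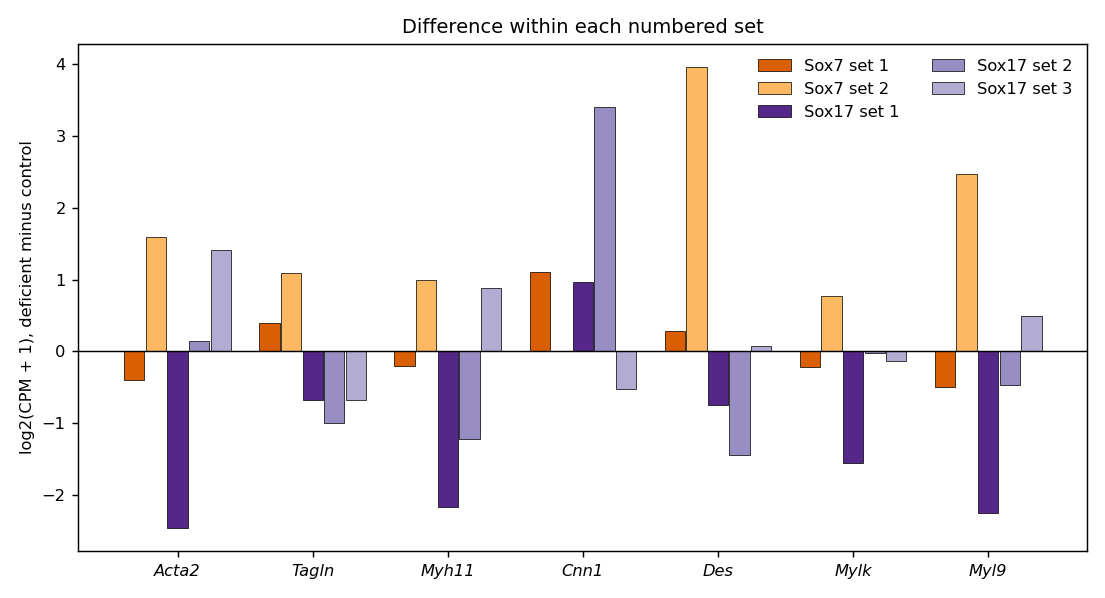
Difference between the deficient library and the control of the same number (vertical axis, log2(CPM + 1)) for each contractile gene (horizontal axis) in the 2 Sox7 and 3 Sox17 sets. Sox17 set 1 reaches −2.46 for Acta2 and Sox7 set 2 reaches 3.96 for Des. Every set but Sox7 set 2 has bars on both sides of 0.

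Read set by set, the contractile genes lay mostly on 1 side of 0 in Sox7 set 2 and Sox17 set 1, and less so in the others. In Sox7 set 2, 6 of the 7 were higher in the deficient library and Cnn1 was at 0 counts in both libraries. The median difference was 1.09, against 0 over all genes tested, of which 43.5% were higher. In Sox7 set 1 only 3 of 7 were higher (Tagln, Cnn1 and Des), against 51.4% of all genes, and the median was −0.20. In Sox17 set 1, 6 of 7 were lower, all but Cnn1, with a median of −1.56, while 37.4% of all genes were lower. In Sox17 set 2, 5 of 7 were lower, against 49.3% of all genes, with a median of −0.47. In Sox17 set 3 only 3 of 7 were lower, against 55.6% of all genes, with a median of 0.08. Summed over the 7 genes, the level was 933 CPM in the control and 254 CPM in the deficient library of Sox17 set 1, and 256 and 538 CPM in those of Sox7 set 2. In the other sets the sums were 449 and 383 CPM (Sox7 set 1), 620.3 and 560.1 CPM (Sox17 set 2) and 372 and 427 CPM (Sox17 set 3), control first. Sox17 set 1 thus held both the highest (control) and the lowest (deficient) sum of all 10 libraries, and Sox7 control 2 had the next lowest. Mylk made up 35.2% to 80.8% of the sum. Without it the sums of Sox17 set 1 were 604 CPM (control) and 143 CPM (deficient) and those of Sox7 set 2 were 49.1 and 183 CPM, and Sox7 control 2 was the lowest library, followed by Sox17 control 3 at 96.8 CPM. Sox17 control 1 was also the shallowest library. Its Acta2 level came from 903 counts, and the part of depth in the difference was not tested.

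Of 11 pericyte markers 7 were above and 4 below 0 in the Sox7 comparison, where 51.9% of all genes were above. Their median log2 fold change was 0.45. In the Sox17 comparison 2 were above and 9 below 0, with a median of −0.98, where 47.1% of all genes were below. None passed edgeR's adjusted threshold in either. Set by set the markers did not all differ in 1 direction. Those higher and lower in the deficient library were 3 and 8 in Sox7 set 1 and 6 and 4 in Sox7 set 2. They were 4 and 6 in Sox17 set 1, 2 and 9 in Sox17 set 2 and 5 and 6 in Sox17 set 3. The 11 summed to 1289 CPM in the control and 1234 CPM in the deficient library of Sox7 set 2, and to 1317 and 934 CPM in those of Sox17 set 1. The surface protein gene Mcam, which endothelium also expresses, dominated the summed level and reached 4209 CPM in Sox17-deficient 2. It was set aside after its values were seen. The other 10 markers summed to 870.2 CPM in Sox17 control 1 and 220.5 CPM in Sox17-deficient 1, and to 350 CPM in Sox7 control 2 and 707 CPM in Sox7-deficient 2. In Sox17 set 2 they were at 745 and 254 CPM, in Sox17 set 3 at 293 and 254 CPM, and in Sox7 set 1 at 414 and 338 CPM. Without Mcam the pericyte and contractile sums differed in the same direction in every set but Sox17 set 3, and with Mcam in Sox7 set 1 and Sox17 set 1 only. The pericyte gene Rgs5, a regulator of G-protein signalling, was at 639.8, 207 and 115 CPM in Sox17 controls and 92.5, 58.6 and 48.5 CPM in Sox17-deficient libraries, which lay below all controls (4.23% of all genes tested did). Its log2 fold change was −2.27 (SE 0.60, edgeR adjusted p of 1), with an adjusted p of 0.0465 in DESeq2 and 0.00163 in edgeR without a filter on low counts. Without Sox17 control 1 its log2 fold change was −1.29. In such bulk samples fewer mural cells and less RNA per mural cell cannot be told apart, and the part of either in the contractile gene values was not tested.

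**Figure D3:**
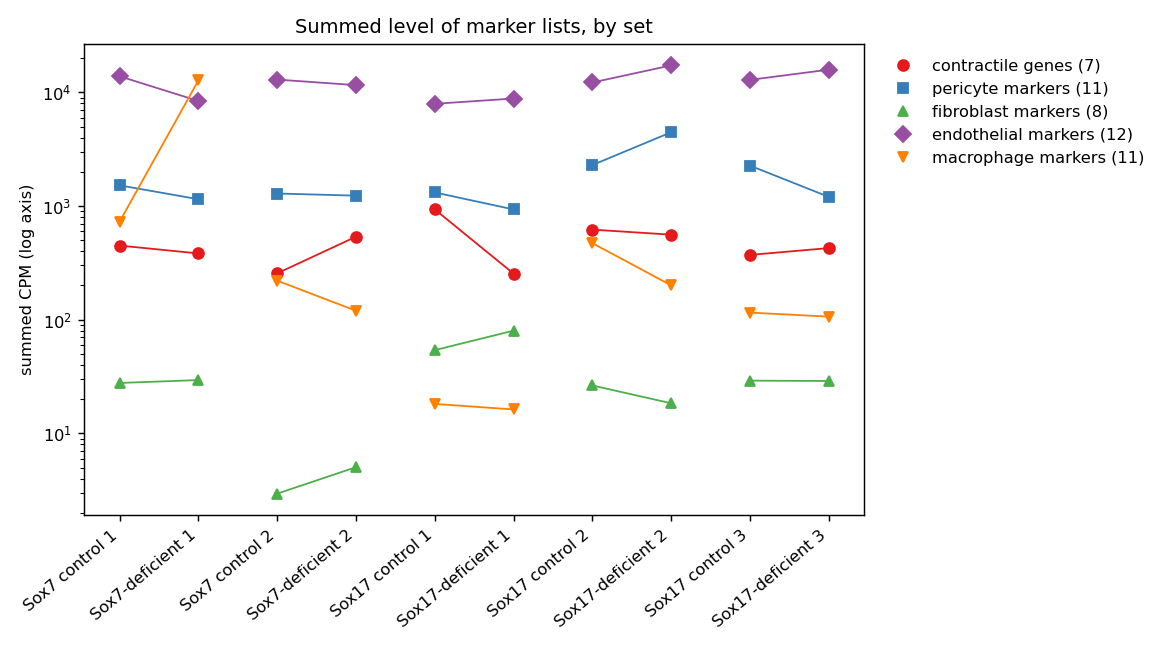
Summed CPM (vertical axis, log scale) of the contractile genes and of 4 lists of cell type markers in each library, with lines joining the control and deficient library of a set. Contractile genes span 254 to 933 CPM, endothelial markers 7943 to 17292 CPM, and macrophage markers reach 12801 CPM in Sox7-deficient 1.

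Markers of fibroblasts were low throughout, with a summed level over 8 genes of 2.95 to 80.1 CPM, and 6 of the 8 were at 0 counts in Sox7 control 2 and in Sox7-deficient 2. Striated muscle counterparts, including skeletal and cardiac actin (Acta1 and Actc1), summed to 0.133 to 20.7 CPM over 11 genes. Actg2, the enteric smooth muscle actin and the closest relative of Acta2, had at most 1 count in any library and did not pass the filter. Over the last 500 bases of the annotated coding transcripts of the 7 genes, 0 of the 50-base windows were found in a transcript of any other gene (for Acta2, 0 of 902 windows). Only the sense sequence of transcripts was searched. The overlaps on the other strand at the 3′ ends of Tagln, Des and Mylk could therefore not be found this way. The macrophage sum was higher in the deficient than in the control library only in Sox7 set 1, where the contractile sums were 449 CPM (control) and 383 CPM (deficient). Its part in the contractile values of that set was not tested.

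The wider contractile apparatus did not follow the 7 genes as a list. Of 15 tested further components 4 were above and 11 below 0 in the Sox7 comparison, with a median log2 fold change of −0.36. In the Sox17 comparison 10 were above and 5 below 0, with a median of 0.24. None passed edgeR's adjusted threshold in either. Pdlim7, a PDZ and LIM domain protein of actin stress fibres, was at 9.52, 15.6 and 35.2 CPM in Sox17 controls and 70.7, 40.04 and 87.5 CPM in Sox17-deficient libraries, all above the controls (4.13% of all genes tested were). Its log2 fold change was 1.70 (SE 0.57, edgeR adjusted p of 1). The smoothelin gene Smtn was at 0.92 (SE 0.52) and the tropomyosin gene Tpm1 at −0.57 (SE 0.37) in the same comparison, and the vinculin gene Vcl at −1.10 (SE 0.64) in the Sox7 comparison, each with an edgeR adjusted p of 1. The 9 non-muscle counterparts, among them beta actin and non-muscle myosin, had median log2 fold changes of −0.0011 and 0.21 in the Sox7 and Sox17 comparisons, and none passed.

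Of the 9 measured genes of serum response factor and its cofactors, 6 were below 0 in each comparison, with medians of −0.27 (Sox7) and −0.41 (Sox17), and none passed. Myocd encodes myocardin, the coactivator that drives smooth muscle genes in partnership with serum response factor. It had 36, 5 and 20 counts in Sox17 controls and 0, 0 and 1 in Sox17-deficient libraries, and 15 and 1 against 7 and 0 counts in the Sox7 arm. As levels the Sox17 controls were at 16.3, 0.395 and 1.24 CPM and the deficient libraries at most at 0.124 CPM. In Sox17-deficient 1 and 2 the 0 allows up to 0.412 and 0.0846 CPM. The first of these limits lies above Sox17 control 2, so Sox17-deficient 1 cannot be placed below all controls. The edgeR adjusted p was 1. Its highest level fell in Sox17 control 1, the library with the highest Acta2, Tagln and Myl9. Srf itself was at −0.74 (SE 0.55) in the Sox7 comparison, with an edgeR adjusted p of 1. Of 19 genes of contraction signalling, such as the subunits of myosin phosphatase, 9 were above and 10 below 0 for Sox7 and 8 above and 11 below 0 for Sox17. The potassium channel subunit gene Kcnmb1 had 0, 36 and 14 counts in Sox17 controls and 0, 1 and 0 in deficient libraries (edgeR adjusted p of 1).

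**Figure D4:**
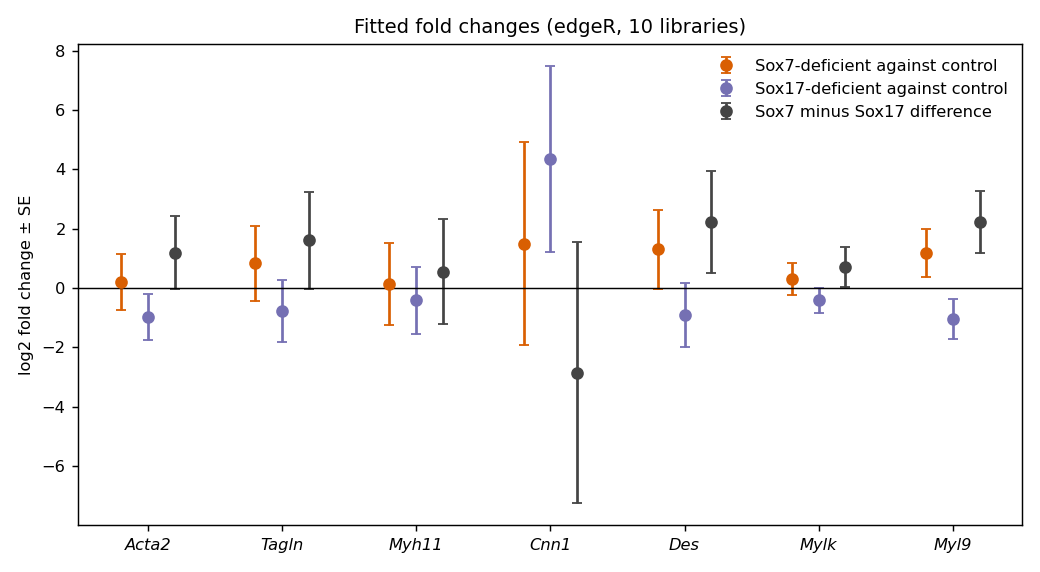
Fitted log2 fold changes (vertical axis, edgeR over 10 libraries, bars ± SE) of each contractile gene for Sox7 deletion, Sox17 deletion and the difference of the 2. The Sox7 points lie above and the Sox17 points below 0 for 6 of the 7 genes, Cnn1 being the exception, and no gene passes the adjusted threshold.

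Whether the 2 deletions differed was tested directly as the Sox7 minus the Sox17 fold change. None of the 7 genes passed (edgeR adjusted p of 1 when rounded), as was true of 0% of all genes tested. Myl9 had the largest difference in units of its error, at 2.23 (SE 1.05) on the log2 scale. The difference lay above 0 for 6 of the 7, all but Cnn1, against 50.6% of all genes. Myl9 was the only one of the 7 with an unadjusted p under 0.05, a share of 14.3% against 2.86% of all genes. The values for the others were 2.22 (SE 1.71) for Des, 1.61 (SE 1.63) for Tagln, 1.19 (SE 1.22) for Acta2, 0.72 (SE 0.68) for Mylk, 0.56 (SE 1.78) for Myh11 and −2.84 (SE 4.397) for Cnn1. Without Sox7-deficient 2 the Myl9 value was 1.00, and without Sox17 control 1 the Acta2 value was −0.33. The arms have separate controls, so any difference between arms includes that between their controls.

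The contractile genes varied together only in part. Over the 10 libraries 16 of the 21 gene pairs had a positive Pearson r on log2(CPM + 1), from −0.27 to 0.78, with a median of 0.32. After the mean of each set was removed the median was 0.61, and all of the 6 pairs with a negative r involved Cnn1. These centred values rest on 5 set differences. The other genes most like the mean of the 7 over the 10 libraries were Rp9 (r 0.97), Bag2 (0.95), Ctu2 (0.92), Stx17 (0.92), Zfp839 (0.91), Ccdc91 (0.91), Mlh3 (0.91), Tmed5 (0.91), Cog7 (0.91) and Trim12c (0.90). None is a listed mural marker. Ranked on set-centred values, Ccdc91 stood at 2, Cog7 at 9 and Rp9 at 32. Of the 11 pericyte markers 6 had a positive and 5 a negative r, from −0.31 (Ndufa4l2) to 0.68 (Rgs5). Set-centred, they ran from −0.94 (Ndufa4l2) to 0.78 (Pdgfrb), with Rgs5 at 0.77. Myocd had an r of 0.56 and Srf of −0.23, and 0.56 and −0.65 set-centred. These likenesses rest on 10 libraries that share sets and differ in depth, and are descriptions. The centred ones rest on the 5 set differences.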

How the data were processed

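Libraries came from Trizol-extracted RNA and a Lexogen Quant-Seq kit, per the labels' protocols. That the counts are tags near transcript 3′ ends was taken from the kit name only. The catalogue number in the labels may belong to another Lexogen kit, so this is uncertain. The authors deposited raw counts for each gene symbol, 1 file per library. The submitters' processing notes list Bowtie2, edgeR and mm10 but not their role or version; annotation, counting tool and strand setting are not given in the sources used here. Repeated symbols were summed. A further 1183 symbols, all starting with Mir, stood in the Sox17 files alone and were left out, leaving 23238. Levels of different genes were not compared by a test, and sums over lists and shares of a sum are descriptions.

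The test was edgeR 4.0.16 in R 4.3.3 (robust quasi-likelihood F-test, TMM scaling, filterByExpr), with 1 mean per group over all 10 libraries and 6 residual degrees of freedom. The filter kept 13040 genes, all 7 contractile genes among them. The Benjamini-Hochberg adjustment ran over all of them, with a threshold of 0.05. For the SE, the absolute log2 fold change was divided by √F. CPM uses the TMM-scaled total, and set differences use a pseudocount of 1 CPM. The script was tested on simulated data. Replicate numbers come from the titles, and shared run labels tie 4 of the 5 sets, and the design text speaks of independent sets, so the number was taken to mark a pair. The main test did not use it, and the replicate block was an alternative. As a check, deviations of paired libraries from their group means correlated at 0.19 in the Sox7 arm (1 value, as its 2 sets mirror each other) and at 0.12, 0.091 and 0.09 in Sox17 sets 1 to 3. Alternatives used a replicate block, RLE factors or no scaling, no filter, DESeq2 1.42.0, limma-voom (3.58.1), 1 arm only, no ribosomal precursor row (Rn45s), and each library left out. The genes and lists were chosen with earlier results of these data known. All 7 contractile genes are named, with at most 3 further genes per list and comparison by smallest p and the 10 genes most alike. Positions are from GENCODE vM21 (GRCm38, the assembly called mm10) and promoters from RefSeq (GRCm38.p6).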

Additional observations from a re-analysis of the deposited data

Results flagged for a closer look

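Tagln was higher in the deficient library in both Sox7 sets and lower in all 3 Sox17 sets, so every set of one arm moved against every set of the other. The tested difference between the fold changes was 1.61 on the log2 scale (SE 1.63), with an edgeR adjusted p of 1 when rounded. Without Sox17 control 1 it was 0.43.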

How the results depend on the processing

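None of the 7 contractile genes was called in any of the 19 settings run, main setting included, in any comparison. The lowest adjusted p was 0.0854, for Des in the Sox7 comparison without Sox7 control 1. With the replicate block the Sox7 and Sox17 fold changes of Acta2 were 0.61 and −0.23 and those of Des 3.39 and −0.72 (log2). The block changed no call of a contractile gene. Over all genes, where the test called 0, the replicate block called 1 (Sox7), 6 (Sox17) and 3 (difference), the table without a filter 58, 30 and 58, DESeq2 3, 29 and 14, and limma-voom 0 in each. Among the other settings 1 of 160 values changed sign, Acta2 in the Sox17 comparison with limma-voom (0.23), and the cause was not tested. When 1 library was left out, 13 of 210 values changed sign. In the Sox7 comparison the ranges were −0.53 to 1.74 for Acta2, −0.58 to 1.62 for Myh11, −6.35 to 7.78 for Cnn1, −0.064 to 0.57 for Mylk and −0.035 to 1.92 for Myl9. In the Sox17 comparison they were −1.47 to 0.52 for Acta2, −2.18 to 0.39 for Tagln and −1.75 to 0.031 for Myh11. For the difference between arms they were −0.33 to 2.74 for Acta2, −0.17 to 2.04 for Myh11 and −10.69 to 3.44 for Cnn1. Rgs5 and Myocd in the Sox7 comparison ran from −0.066 to 1.58 and from −6.52 to 2.29. A level under 3 counts, 0.0846 CPM in the deepest and 1.36 CPM in the shallowest library, was not distinguishable from 0, which limits Cnn1 and Myocd.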
